A study of Saccharomyces cerevisiae with 72 samples.

Results

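The 50 ribosome biogenesis factors described here are genes of the budding yeast Saccharomyces cerevisiae chosen by name from the nucleolar pathway that builds ribosomes, out of 6848 genes present in both deposited expression tables. All 50 were found in both tables, and all 50 passed the filter of a mean of at least 1 TPM, a transcript level corrected for transcript length and library total. They were followed in 8 strains sampled before (0 min) and 20 and 60 min after addition of 1 μM estradiol, with 3 libraries in each of the 24 groups. In the 4 inducible strains, called Z3EVp, a Z4 promoter answered to estradiol and drove yhp1-13A, YHP1, yox1-9A or YOX1, each tagged with 3V5. In the 4 control strains, called ctrl, the same 4 tagged alleles stayed at their own promoters and the Z4 promoter stood before HO instead. YHP1 and YOX1 encode homeodomain repressors of cell cycle genes, and yhp1-13A and yox1-9A are versions without sites phosphorylated by Cdk1. Every strain was MATa with ura3delta0, his3delta1, lypdelta0 and can1delta::STE2pr-SpHIS5, and every strain expressed the hormone-dependent activator Z3EV from the ACT1 promoter, inserted with HAP1+ and NatMX. The tagged alleles carried KanMx and the Z4 promoters carried URA3. Cells grew asynchronously in YM-1 medium with 2% dextrose, each genotype was represented by a single named strain, and no strain was sampled over time without estradiol. Estradiol, handling and elapsed time therefore cannot be told apart in a change over time.

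Ribosome assembly starts in the nucleolus, where snoRNA-guided enzymes modify the nascent ribosomal RNA and a large early particle, the 90S processome, folds and cuts it. RNA helicases, GTPases and scaffold proteins then remodel the separated 40S and 60S precursors until export factors carry them to the cytoplasm. In yeast, the genes for these factors are known as a regulon that is transcribed strongly in fast growth and shut down quickly by nutrient loss or stress. Many of their promoters carry the short elements PAC, which the repressors Dot6 and Tod6 are known to bind, and RRPE, which the repressor Stb3 is known to bind.

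The labels held. The repressor gene named by each strain stood at 19.2 to 31.4 TPM in the inducible strains at 0 min and at 440.4 to 1245 TPM at 20 min, against 37.4 to 126 TPM at 0 min and 49.8 to 166 TPM at 20 min in the ctrl strains. HO stood at 2.59 to 34.8 TPM at 20 min in the inducible strains, against 305 to 415 TPM in the ctrl strains. Over the 72 libraries 6 genes of MATa cells summed to between 762 and 10720 TPM, with STE6 at 8.97 to 74.9 TPM the lowest of them, against 22.9 to 39.5 TPM for 4 genes of alpha cells, of which SAG1 had 14.7 to 28.1 TPM and the pheromone gene MF(ALPHA)1 at most 1.34 TPM. Sequencing depth is unknown, because TPM does not keep it. The libraries came in 2 tables of 36, one with the YHP1 alleles (here the yhp1 table) and one with the YOX1 alleles (the yox1 table), and the 0 min libraries of the yhp1 table did not resemble each other. Its 4 libraries numbered 1 at 0 min, from 4 strains, had summed factor levels of 9078 to 10547 TPM, against 6363 to 7526 TPM in its 8 libraries numbered 2 and 3. Summed levels of 18 stress-induced genes ran the other way in the same libraries, at 411 to 596 TPM in those numbered 1 and 1048 to 1639 TPM in those numbered 2 and 3. In the yox1 table these sums were 393 to 568 TPM at 0 min. The part of this difference in the results was not tested. Counts and medians of the change from 0 min in the ctrl strains are given with and without these libraries, as are changes of named factors at 20 min that move by over 1.5 times.

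At 20 min the ribosome biogenesis factors fell nearly as a body in every ctrl strain. The 50 genes together made up 6363 to 10547 TPM over the 12 ctrl libraries at 0 min, 2492 to 3755 TPM over the 12 at 20 min and 5046 to 6172 TPM over the 12 at 60 min, with medians of 7370 TPM, 3125 TPM and 5423 TPM. No ctrl library at 20 min reached the sum of any ctrl library at 0 or 60 min, and at 60 min the sums lay below every sum at 0 min. Each library is a bulk sample of many cells, in which fewer cells of a kind and less RNA per cell cannot be told apart.

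**Figure D1:**
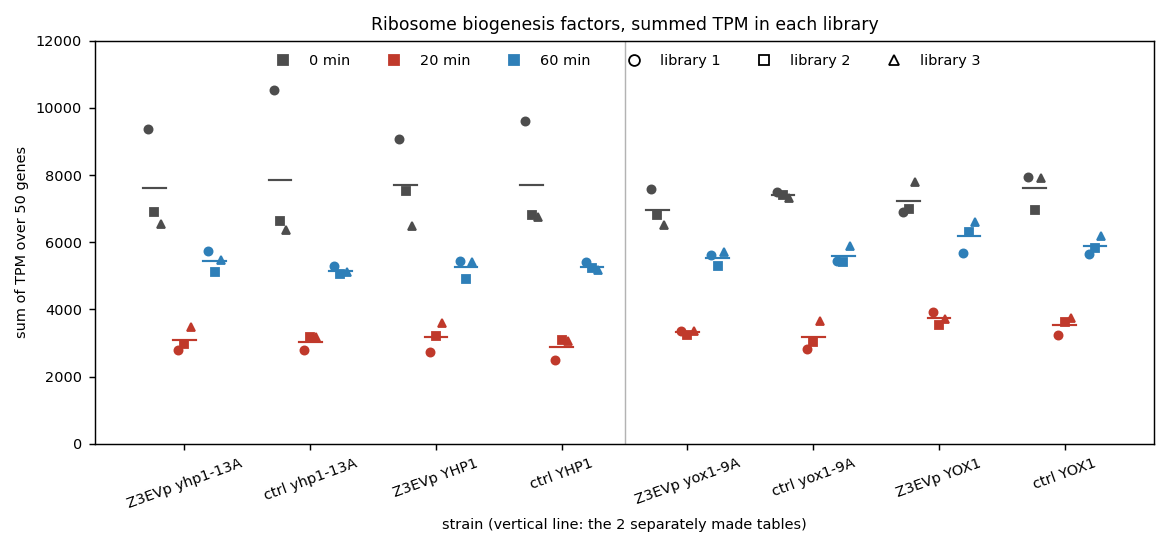
Sum of TPM over the 50 ribosome biogenesis factors (vertical axis) in each of 72 libraries, by strain (horizontal axis), time (colour) and library number (marker), with a bar at the mean of 3 libraries. Sums at 20 min lie between 2492 and 3913 TPM in all 8 strains, below all sums at 0 and 60 min, and the circles at 0 min left of the line are the libraries numbered 1 of the yhp1 table.

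A gene was called where limma on log2(TPM + 1) gave an adjusted p below 0.05 (Benjamini-Hochberg over all genes tested) and a log2 difference beyond 0.58 in size. By this rule 46 of 50 factors fell at 20 against 0 min in ctrl yhp1-13A, where 10.4% of the 6230 genes tested fell, and 48 of 50 in ctrl YHP1, where 11.6% fell. In ctrl yox1-9A 49 factors fell against a background of 8.9% of 6255 genes, and in ctrl YOX1 49 fell against 7.64%. No factor rose in any of the 4, where 7.08%, 7.58%, 7.1% and 7.99% of all genes tested rose in the same order of strains. The median log2 change over the 50 was -1.18, -1.21, -1.24 and -1.11, while the median over all genes tested was -0.03, -0.04, -0.03 and 0.03. In 46 of the 50 the fall was called in all 4 ctrl strains. Over all genes this joint count was not made, and it can be at most the 478 of 6255 called lower in ctrl YOX1. Standard errors of these changes were 0.09 to 0.32 among YHP1 alleles and 0.08 to 0.21 among YOX1 alleles. All 3 libraries at 20 min lay below all 3 at 0 min for 47, 49, 50 and 50 of the factors in that order of strains, where 21.2%, 25.0%, 27.1% and 20.6% of all genes tested did so. For fits with libraries left out, the share of all genes called is not given. The calls were 42, 45, 49 and 48 without the 0 min libraries numbered 1, with medians of -0.88, -1.01, -1.28 and -1.07. After leaving out the 0 min libraries numbered 2 and 3 of the yhp1 table instead, they were 49 in ctrl yhp1-13A and 49 in ctrl YHP1, with medians of -1.84 and -1.67.

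The promoters of the factors shared the elements named above. The choice of genes had not used sequences, but the elements are already known from promoters of this regulon. Their frequency here is therefore no independent result. A window of 300 bases, 250 before the start codon and 50 after it, was read for each gene from the R64 genome and annotation of RefSeq, and both strands were searched. The PAC core GATGAG stood in 47 of 50 factor windows (94.0%), against 20.4% of the windows of 6001 protein-coding genes, and the RRPE core AAAATTTT in 42 (84.0%), against 9.03%. Both stood in 40 windows (80.0%), against 4.38% of all. Windows of 107 other 90S, 40S and 60S factors also held the PAC core in 88.8%, the RRPE core in 71.0% and both in 64.5%. Windows of 137 ribosomal protein genes held the PAC core in 10.9% and the RRPE core in 6.57%. In the 46 factors with a PAC core before the start codon, the nearest lay between 67 and 204 bases before it, with a median of 119. The stretches of 30 bases below, written on the strand of the gene, show the elements at the 5 factors that fell most, at NOP1, the most abundant, and at RRP9 and UTP15, which changed least after UTP22. A single matched core per stretch is in capitals, and CTCATC is GATGAG read on the other strand. The stretches of NOP7, SDA1 and NUG1 hold further PAC core matches that are not in capitals throughout.
DBP2, PAC, chrXIV:413472-413501, plus strand: tttacgccgatgCTCATCgcagaaaatttt
NOP7, PAC, chrVII:695286-695315, plus strand: gcgatgagatgaGATGAGaaaaaatgaaaa
NSR1, PAC, chrVII:807826-807855, minus strand: ttgcaagggcagCTCATCgcaagaacgaaa
SDA1, PAC, chrVII:982196-982225, minus strand: ttttaaactcatCTCATCgcagataaccat
NUG1, PAC, chrV:162613-162642, plus strand: gcgaggcgatgaGATGAGctaattatatca
NOP1, PAC, chrIV:427148-427177, plus strand: caaattggaaagCTCATCtctcttgaatgt
RRP9, PAC, chrXVI:802227-802256, plus strand: tgacattttataGATGAGctttgattaaac
UTP15, RRPE, chrXIII:453891-453920, plus strand: ggaataactgaAAAATTTTgaaaactttcg
In DBP2 the RRPE core follows the PAC core within the printed stretch. UTP15 had no PAC core, RRP9 had no RRPE core, and UTP22 was the single factor whose window held neither. The 40 factors with both cores had a median change of -1.25 over the ctrl strains at 20 min (range -3.32 to -0.82). The 3 without a PAC core (SPB1, UTP15 and UTP22) had -0.63 (-1.01 in SPB1 to -0.20). The 8 without an RRPE core had -1.05 (-1.53 in MAK5 to -0.20). These ranges overlapped. A match is only a run of letters, and binding was not measured.

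The snoRNP proteins carry out methylation (box C/D) and pseudouridylation (box H/ACA) of ribosomal RNA. All 3 box C/D proteins (NOP1, NOP56 and NOP58) and all 3 box H/ACA proteins (GAR1, CBF5 and NHP2) fell at 20 min in all 4 ctrl strains. NOP1, the RNA methyltransferase fibrillarin, was the most abundant of the 50. Its levels in ctrl yhp1-13A were 1080.5, 968 and 1000.4 TPM at 0 min, 456, 556 and 608 TPM at 20 min and 1011, 882 and 1046 TPM at 60 min. In ctrl YHP1 NOP1 had 1042, 948 and 1024 TPM at 0 min, 423, 508 and 542 TPM at 20 min and 983, 910.4 and 995 TPM at 60 min. The 20 min libraries lay below all others, and those at 0 and 60 min overlapped. NOP1 levels in ctrl yox1-9A were 787, 1053 and 906 TPM at 0 min, 417, 523 and 539 TPM at 20 min and 902, 941 and 826 TPM at 60 min. Those in ctrl YOX1 were 848, 1027 and 871 TPM at 0 min, 454, 498 and 493 TPM at 20 min and 891, 819 and 833 TPM at 60 min. The order was the same, and the log2 change of NOP1 over the 4 strains was between -0.89 and -1.04 at 20 min and between -0.03 and -0.11 at 60 min, each with a standard error of 0.11 or 0.12.

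GAR1, a structural protein of the pseudouridylating particles, was called lower at 60 min in the 2 strains with YHP1 alleles. In ctrl yhp1-13A GAR1 measured 772, 626 and 620.0 TPM at 0 min, 246, 239 and 285 TPM at 20 min and 423, 368 and 393 TPM at 60 min. Libraries of ctrl YHP1 measured 740.4, 605 and 665 TPM at 0 min, 233, 251 and 247 TPM at 20 min and 407, 367 and 388 TPM at 60 min. The 3 times did not overlap in either strain, and the 60 min change was -0.76 and -0.78 (limma adjusted p = 7.8e-07 and 4.4e-07). For ctrl yox1-9A the GAR1 values were 600.0, 512 and 522 TPM at 0 min, 236, 246 and 319.6 TPM at 20 min and 364, 368 and 421 TPM at 60 min. It stood at 633, 445 and 583 TPM at 0 min, 308, 303 and 306 TPM at 20 min and 402, 448 and 482 TPM at 60 min in ctrl YOX1. In both the 20 min libraries were the lowest, and those at 60 min lay below those at 0 min only in ctrl yox1-9A. CBF5, the pseudouridine synthase, had a mean change over the ctrl strains of -0.82 at 20 min and -0.14 at 60 min.

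The 90S processome is built from subcomplexes, of which UTP-A binds the start of the ribosomal RNA precursor. Its 6 members fell at 20 min in every ctrl strain except for UTP15 in ctrl yhp1-13A. UTP15, the most abundant of the 6, was in ctrl yhp1-13A at 139, 89.7 and 92.4 TPM at 0 min, 65.2, 70.4 and 77 TPM at 20 min and 84.8, 77.9 and 93.7 TPM at 60 min. In ctrl YHP1 UTP15 was at 128, 90.3 and 94.6 TPM at 0 min, 57.8, 73.9 and 75.3 TPM at 20 min and 84.6, 80.5 and 91.7 TPM at 60 min. All values at 20 min were below those at 0 min. The libraries of ctrl yox1-9A held 125, 127 and 124 TPM at 0 min, 66.8, 73.6 and 81.1 TPM at 20 min and 83.1, 96.9 and 112 TPM at 60 min. Those of ctrl YOX1 held 139.9, 118 and 127 TPM at 0 min, 76.6, 82.7 and 91.5 TPM at 20 min and 90.8, 111 and 112 TPM at 60 min. Again no library at 20 min reached one at 0 min. Its log2 changes at 20 min were -0.56, -0.58, -0.76 and -0.61 in ctrl yhp1-13A, ctrl YHP1, ctrl yox1-9A and ctrl YOX1, with limma adjusted p between 2.6e-06 and 0.0059, so that calls turned on the limit of 0.58. In ctrl yhp1-13A it was -0.67, -0.65 and -0.62 and was called without replicate 2 or 3 at 0 min or replicate 3 at 20 min. It was not called without replicate 1 at 0 min (-0.43 in ctrl YHP1 and -0.55 in ctrl YOX1) or without replicate 1 at 20 min (-0.46 and -0.55), nor in ctrl YHP1 with libraries shifted to a common median (-0.48). In ctrl yhp1-13A it was -0.36 without replicate 1 at 0 min. Without replicates 2 and 3 at 0 min it was -0.97 and called in ctrl yhp1-13A, and -0.89 in ctrl YHP1. UTP10, a large scaffold protein of the subcomplex, regained 95.1% of its mean fall by 60 min, the highest share among the 49 factors that fell beyond 0.58 on average.

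UTP-B and UTP-C are further building blocks of the processome, represented by UTP13 and UTP21 and by UTP22. UTP22, of UTP-C, was the 1 factor not called lower at 20 min in any of the 8 strains. In ctrl yhp1-13A UTP22 was at 79.6, 49.8 and 52.6 TPM at 0 min, 53, 55.7 and 51.9 TPM at 20 min and 51.7, 53.6 and 53 TPM at 60 min. In ctrl YHP1 UTP22 was at 67.1, 51.8 and 55.4 TPM at 0 min, 49.1, 55.9 and 50.4 TPM at 20 min and 56.1, 52.6 and 57.8 TPM at 60 min. The times overlapped in both strains. UTP22 levels in ctrl yox1-9A were 71, 75.2 and 73.9 TPM at 0 min, 62, 60.1 and 61.3 TPM at 20 min and 61.9, 66.6 and 75.4 TPM at 60 min. Those in ctrl YOX1 were 78.9, 72.1 and 68.1 TPM at 0 min, 57.8, 62.6 and 65 TPM at 20 min and 60.9, 64.7 and 68.6 TPM at 60 min. Here the groups at 0 and 20 min were separate. Its log2 change at 20 min was -0.15, -0.16, -0.26 and -0.24 in ctrl yhp1-13A, ctrl YHP1, ctrl yox1-9A and ctrl YOX1, with limma adjusted p of 0.36, 0.32, 0.021 and 0.036. Without replicate 1 at 0 min it was 0.063 in ctrl yhp1-13A and -0.049 in ctrl YHP1. Without replicate 2 or 3 at 0 min it was -0.27 or -0.23 in ctrl yhp1-13A, and without both it was -0.56 there and -0.37 in ctrl YHP1.

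UTP21, a WD-repeat protein of UTP-B, fell in all 4 ctrl strains by -0.93 to -1.15 on the log2 scale. In ctrl yhp1-13A UTP21 had 109.9, 52.4 and 50.5 TPM at 0 min, 31.1, 31.2 and 30 TPM at 20 min and 47.3, 43.8 and 45 TPM at 60 min. In ctrl YHP1 UTP21 had 92.5, 54.9 and 54.9 TPM at 0 min, 25, 30.7 and 31.4 TPM at 20 min and 50.3, 44.1 and 49 TPM at 60 min. The first library stood apart at 0 min in both. UTP21 levels in ctrl yox1-9A were 73.4, 75.9 and 72.8 TPM at 0 min, 32, 33.5 and 37.5 TPM at 20 min and 51.1, 54.6 and 62.3 TPM at 60 min. In ctrl YOX1 UTP21 had 79.8, 66.1 and 74.1 TPM at 0 min, 34.9, 38.4 and 40.5 TPM at 20 min and 51.2, 60.3 and 60.7 TPM at 60 min. No group of UTP21 overlapped another in the 4 strains. In ctrl yhp1-13A its change was -0.73 without replicate 1 at 0 min and -1.81 without replicates 2 and 3.

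The 3 proteins of the Mpp10 complex, which helps U3 snoRNA pair with the precursor, fell in all 4 ctrl strains. IMP3 of this complex regained 42.2% of its mean fall by 60 min, the lowest share among the 49 factors. In ctrl yhp1-13A IMP3 had 159.6, 87.3 and 85.1 TPM at 0 min, 43.2, 48.4 and 45.3 TPM at 20 min and 60.1, 56 and 56.9 TPM at 60 min. In ctrl YHP1 IMP3 had 151, 89.4 and 93.5 TPM at 0 min, 40.4, 39.8 and 47 TPM at 20 min and 60.2, 64.2 and 63.6 TPM at 60 min. Its groups were separate in both strains. For ctrl yox1-9A the IMP3 values were 103, 87.1 and 98.3 TPM at 0 min, 39.5, 39.7 and 50.5 TPM at 20 min and 54.6, 59.8 and 75.1 TPM at 60 min. In ctrl YOX1 IMP3 had 101, 73.9 and 110.0 TPM at 0 min, 44.6, 54 and 63.8 TPM at 20 min and 58.9, 77.8 and 89 TPM at 60 min. Libraries at 60 min overlapped neither other time in ctrl yox1-9A and both in ctrl YOX1. A rise of IMP3 at 60 against 20 min was called in none of the 4 (log2 0.33 to 0.56, limma adjusted p between 0.042 and 0.24).

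Of 6 other factors of the 90S and 40S pathway, NSR1, the yeast nucleolin, had the largest mean fall (-1.86). In ctrl yhp1-13A NSR1 was at 708, 525 and 398 TPM at 0 min, 103, 142 and 158 TPM at 20 min and 255, 229.7 and 271 TPM at 60 min. In ctrl YHP1 NSR1 was at 716, 523 and 451 TPM at 0 min, 86.4, 143 and 162 TPM at 20 min and 237, 240.4 and 270.2 TPM at 60 min. Levels at 60 min lay between those at 0 and 20 min, with no overlap. In ctrl yox1-9A NSR1 was at 482, 496 and 444 TPM at 0 min, 106, 139 and 149 TPM at 20 min and 265, 299 and 295 TPM at 60 min. In ctrl YOX1 NSR1 was at 536, 416 and 499 TPM at 0 min, 148, 194 and 177 TPM at 20 min and 279, 339 and 328 TPM at 60 min. The order was the same, and NSR1 was called lower at 20 min (log2 -1.48 to -2.12) and still at 60 min (-0.61 to -1.15) in all 4 strains. RRP12, an export factor of pre-40S particles, had a mean change of -1.55 and had regained 89.5% by 60 min.

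RRP9, a protein of the U3 snoRNP, was called in 2 of the 4. In ctrl yhp1-13A RRP9 had 67.4, 27.2 and 31.2 TPM at 0 min, 25.2, 26.9 and 27.9 TPM at 20 min and 30.3, 34.5 and 28.6 TPM at 60 min. In ctrl YHP1 RRP9 had 57.6, 28 and 33.2 TPM at 0 min, 23.1, 26.1 and 27.5 TPM at 20 min and 34.4, 35.4 and 31.5 TPM at 60 min. The first library at 0 min was far above the others in both strains, and RRP9 was not called there (-0.52 and -0.55, limma adjusted p = 0.099 and 0.078). RRP9 levels in ctrl yox1-9A were 46.9, 39.3 and 41.6 TPM at 0 min, 22.9, 23 and 26.4 TPM at 20 min and 30.9, 29 and 34.2 TPM at 60 min. Those in ctrl YOX1 were 51.9, 38.6 and 52.2 TPM at 0 min, 27.4, 29.4 and 32.4 TPM at 20 min and 35, 36.3 and 41.1 TPM at 60 min. It was called lower at 20 min in both (log2 -0.80 and -0.65, limma adjusted p = 8.3e-06 and 0.00014). Without replicate 1 at 0 min RRP9 was at -0.12 in ctrl yhp1-13A and -0.25 in ctrl YHP1 and was not called. It was called in both without replicate 2 at 0 min, at -0.76 in each, and without replicates 2 and 3, at -1.31 and -1.15. Without replicate 3 at 0 min it was -0.58 and not called in ctrl YOX1.

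The 8 RNA helicases grouped together here, most of them of 60S assembly, fell in all 4 ctrl strains, as did the helicase ROK1 of the 40S pathway, and among the 8 was the gene with the largest change of the 50. DBP2 encodes a DEAD-box helicase with roles in mRNA packaging as well as in ribosome assembly. The gene lies at chrXIV:413639-416281 on the plus strand with an intron of 1002 bases, and the deposited levels count exons only. In ctrl yhp1-13A DBP2 was at 717, 445 and 338 TPM at 0 min, 40.3, 34.3 and 29.8 TPM at 20 min and 165, 143 and 166 TPM at 60 min. In ctrl YHP1 DBP2 was at 648, 449.7 and 374 TPM at 0 min, 25, 35 and 37.4 TPM at 20 min and 163, 146 and 166 TPM at 60 min. No group overlapped another. In ctrl yox1-9A DBP2 was at 362, 371 and 343 TPM at 0 min, 32.1, 43.3 and 59.7 TPM at 20 min and 192, 212 and 222 TPM at 60 min. In ctrl YOX1 DBP2 was at 409.6, 325 and 389 TPM at 0 min, 47, 65.7 and 65 TPM at 20 min and 198, 224 and 238 TPM at 60 min. The groups were again separate. The log2 change of DBP2 at 20 min was -3.75 ± 0.25, -3.86 ± 0.25, -3.01 ± 0.15 and -2.65 ± 0.15 in the same order of strains (SE, n = 3 libraries a group, limma adjusted p = 2.2e-12, 1e-12, 3.3e-15 and 6.4e-14). On average this was a level 9.96 times lower on the TPM + 1 scale. DBP2 and NSR1 were the 2 factors called lower at 60 min in all 4 ctrl strains, and DBP2 then stood at -1.59, -1.59, -0.78 and -0.76. Of the other helicases, MAK5 had the next largest mean fall (-1.53) and SPB4 the smallest (-0.83).

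**Figure D2:**
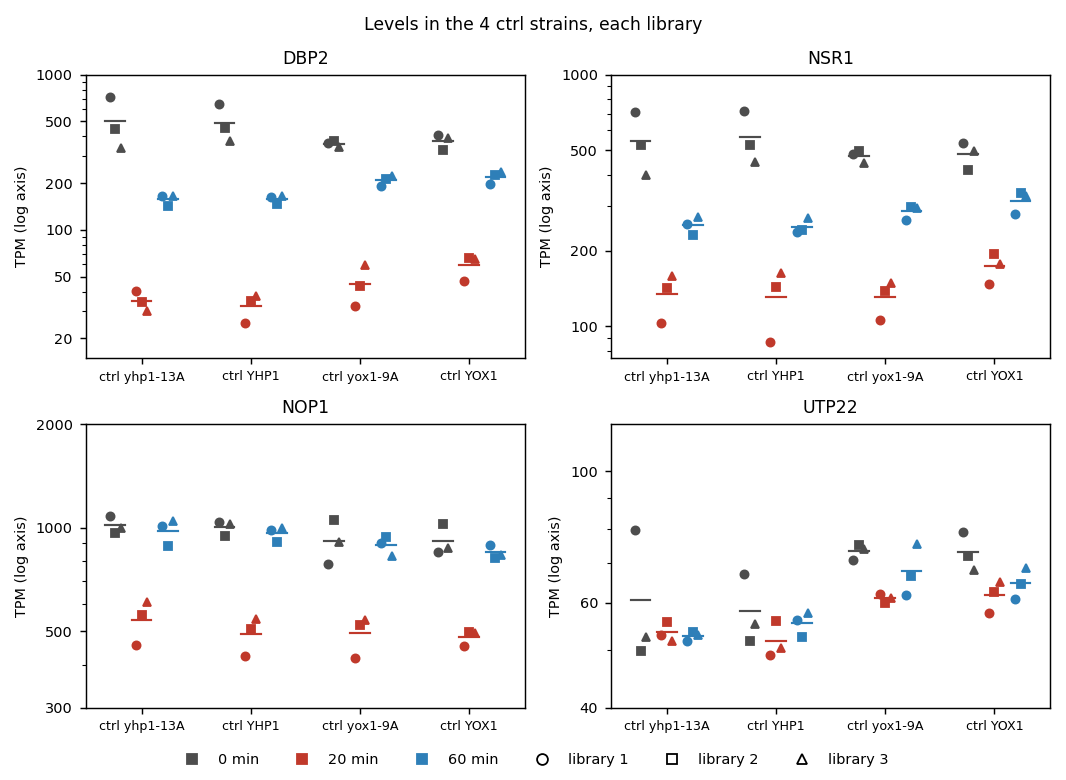
Levels (TPM, log axis) of DBP2, NSR1, NOP1 and UTP22 in every library of the 4 ctrl strains (horizontal axis) by time (colour) and library number (marker), with a bar at the mean of 3 libraries. DBP2 and NSR1 fall at 20 min and return in part, NOP1 falls and returns to overlap its 0 min level, and UTP22 stays between 49.1 and 79.6 TPM.

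The PeBoW complex, which is needed to mature the RNAs of the 60S subunit, fell in all 3 members. NOP7 of this complex followed DBP2 in the order of mean change over the 50 (-1.91). In ctrl yhp1-13A NOP7 was at 259, 126 and 138 TPM at 0 min, 33.6, 39.8 and 39.8 TPM at 20 min and 99.2, 106 and 89.4 TPM at 60 min. In ctrl YHP1 NOP7 was at 209, 138 and 137 TPM at 0 min, 28.6, 40.4 and 32.2 TPM at 20 min and 114, 112 and 90.7 TPM at 60 min. No group overlapped another. In ctrl yox1-9A NOP7 was at 165, 139 and 147 TPM at 0 min, 38.9, 36.3 and 57.4 TPM at 20 min and 103, 94.7 and 112 TPM at 60 min. NOP7 levels in ctrl YOX1 were 172, 135 and 168 TPM at 0 min, 46.5, 51.2 and 62.6 TPM at 20 min and 112, 104 and 123 TPM at 60 min. Here too the groups were separate, and the log2 change at 20 min was -2.11, -2.21, -1.77 and -1.55 in ctrl yhp1-13A, ctrl YHP1, ctrl yox1-9A and ctrl YOX1. Its partners YTM1 and ERB1 had mean changes of -1.45 and -1.45.

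The 60S RNA methyltransferases NOP2 and SPB1 and the 8 assembly factors NOP4, NOP12, NOP15, RLP7, MAK16, EBP2, BRX1 and SSF1 all fell in all 4 ctrl strains. NOP2 methylates a cytosine of the large ribosomal RNA. In ctrl yhp1-13A NOP2 had 108, 52.9 and 56.1 TPM at 0 min, 27.6, 31.4 and 28.4 TPM at 20 min and 53.8, 49.9 and 47.5 TPM at 60 min. In ctrl YHP1 NOP2 had 94.9, 56.3 and 58.9 TPM at 0 min, 24.5, 29.3 and 28.7 TPM at 20 min and 54.4, 49.2 and 48.3 TPM at 60 min. At 20 min both were below their other times. In ctrl yox1-9A NOP2 had 79.9, 76.2 and 83.3 TPM at 0 min, 29.8, 27.3 and 38.3 TPM at 20 min and 62.6, 56 and 63.1 TPM at 60 min. In ctrl YOX1 NOP2 had 90.8, 75.7 and 87.5 TPM at 0 min, 35.4, 37.6 and 42.1 TPM at 20 min and 63.6, 58.7 and 69.1 TPM at 60 min. Its fall was -1.12 to -1.31 on the log2 scale over the 4 strains, and the 60 min level was called lower in none. Without replicates 2 and 3 at 0 min the fall in ctrl yhp1-13A was -1.86.

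BRX1, a protein of early 60S precursors, was the most abundant assembly factor. In ctrl yhp1-13A BRX1 had 478, 326 and 327 TPM at 0 min, 105, 132 and 117 TPM at 20 min and 205, 198 and 189 TPM at 60 min. In ctrl YHP1 BRX1 had 439, 344 and 336 TPM at 0 min, 92.6, 114 and 114 TPM at 20 min and 220.5, 214 and 214 TPM at 60 min. The 3 times were separate in both. For ctrl yox1-9A the BRX1 values were 403, 342 and 362 TPM at 0 min, 127, 125 and 181 TPM at 20 min and 222, 223 and 317 TPM at 60 min. In ctrl YOX1 BRX1 had 375, 286 and 434 TPM at 0 min, 149, 158 and 196 TPM at 20 min and 224, 301 and 319 TPM at 60 min. Only in ctrl YOX1, of the 4, did the 60 min libraries overlap those at 0 min. Its log2 change was -1.65, -1.79, -1.37 and -1.11 at 20 min in ctrl yhp1-13A, ctrl YHP1, ctrl yox1-9A and ctrl YOX1, and it was called lower at 60 min in ctrl yhp1-13A and ctrl YHP1 (-0.91 and -0.77). SSF1 is 92.1% identical over 1362 coding bases to its paralog SSF2, so its level is uncertain where reads matched both.

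GTPases and the factors that lead 60S precursors out of the nucleus fell in every ctrl strain except for NOG2, a GTPase of late nuclear 60S precursors, in ctrl yhp1-13A (log2 -0.77, limma adjusted p = 0.055). SDA1 is required for export of 60S precursors. In ctrl yhp1-13A SDA1 had 81.9, 44.4 and 40.7 TPM at 0 min, 11.5, 14.9 and 14.2 TPM at 20 min and 44.1, 38.5 and 38.1 TPM at 60 min. In ctrl YHP1 SDA1 had 68.5, 45.8 and 43.4 TPM at 0 min, 10.7, 14.1 and 12.4 TPM at 20 min and 46.6, 37.1 and 37.1 TPM at 60 min. At 60 min the levels stood nearer to those at 0 min than to those at 20 min. In ctrl yox1-9A SDA1 had 49.7, 51.9 and 55.2 TPM at 0 min, 13.4, 13.1 and 16.7 TPM at 20 min and 43.6, 39.4 and 38.9 TPM at 60 min. In ctrl YOX1 SDA1 had 59.1, 54.9 and 49.4 TPM at 0 min, 15.8, 17 and 13.9 TPM at 20 min and 46.4, 35.8 and 36.3 TPM at 60 min. Its fall was -1.74 to -1.97 on the log2 scale, and 78.9% of the mean fall had been regained by 60 min.

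NUG1, a nucleolar GTPase, and NMD3, the export adaptor of the 60S subunit, regained 56.4% and 59.5%. In ctrl yhp1-13A NUG1 was at 255, 151 and 147 TPM at 0 min, 46.8, 50.3 and 51 TPM at 20 min and 97, 86.9 and 91.6 TPM at 60 min. In ctrl YHP1 NUG1 was at 243, 158 and 161 TPM at 0 min, 38.1, 46.2 and 52.7 TPM at 20 min and 97.4, 89.4 and 99.1 TPM at 60 min. The 3 times were separate. In ctrl yox1-9A NUG1 was at 194, 163 and 176 TPM at 0 min, 59.4, 56 and 78.3 TPM at 20 min and 109, 106 and 143 TPM at 60 min. NUG1 levels in ctrl YOX1 were 191, 131 and 207 TPM at 0 min, 62.7, 74.7 and 89.1 TPM at 20 min and 103, 141 and 165 TPM at 60 min. Of these only ctrl YOX1 had an overlap between 0 and 60 min. Its log2 change at 20 min was -1.83, -1.99, -1.46 and -1.20 in ctrl yhp1-13A, ctrl YHP1, ctrl yox1-9A and ctrl YOX1. In ctrl yhp1-13A NMD3 was at 274, 150.0 and 151 TPM at 0 min, 49.5, 62.3 and 54.7 TPM at 20 min and 107, 106 and 101 TPM at 60 min. In ctrl YHP1 NMD3 was at 243, 155 and 157 TPM at 0 min, 44.4, 54.9 and 53.9 TPM at 20 min and 115, 109 and 106 TPM at 60 min. The order of the times was as for NUG1. In ctrl yox1-9A NMD3 was at 186, 158 and 179 TPM at 0 min, 57.4, 55.9 and 77.6 TPM at 20 min and 117, 105 and 139 TPM at 60 min. NMD3 levels in ctrl YOX1 were 185, 149 and 212 TPM at 0 min, 69, 71.8 and 88.3 TPM at 20 min and 116, 127 and 151 TPM at 60 min. The log2 change of NMD3 at 20 min was -1.72, -1.81, -1.45 and -1.23 in the same order.

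**Figure D3:**
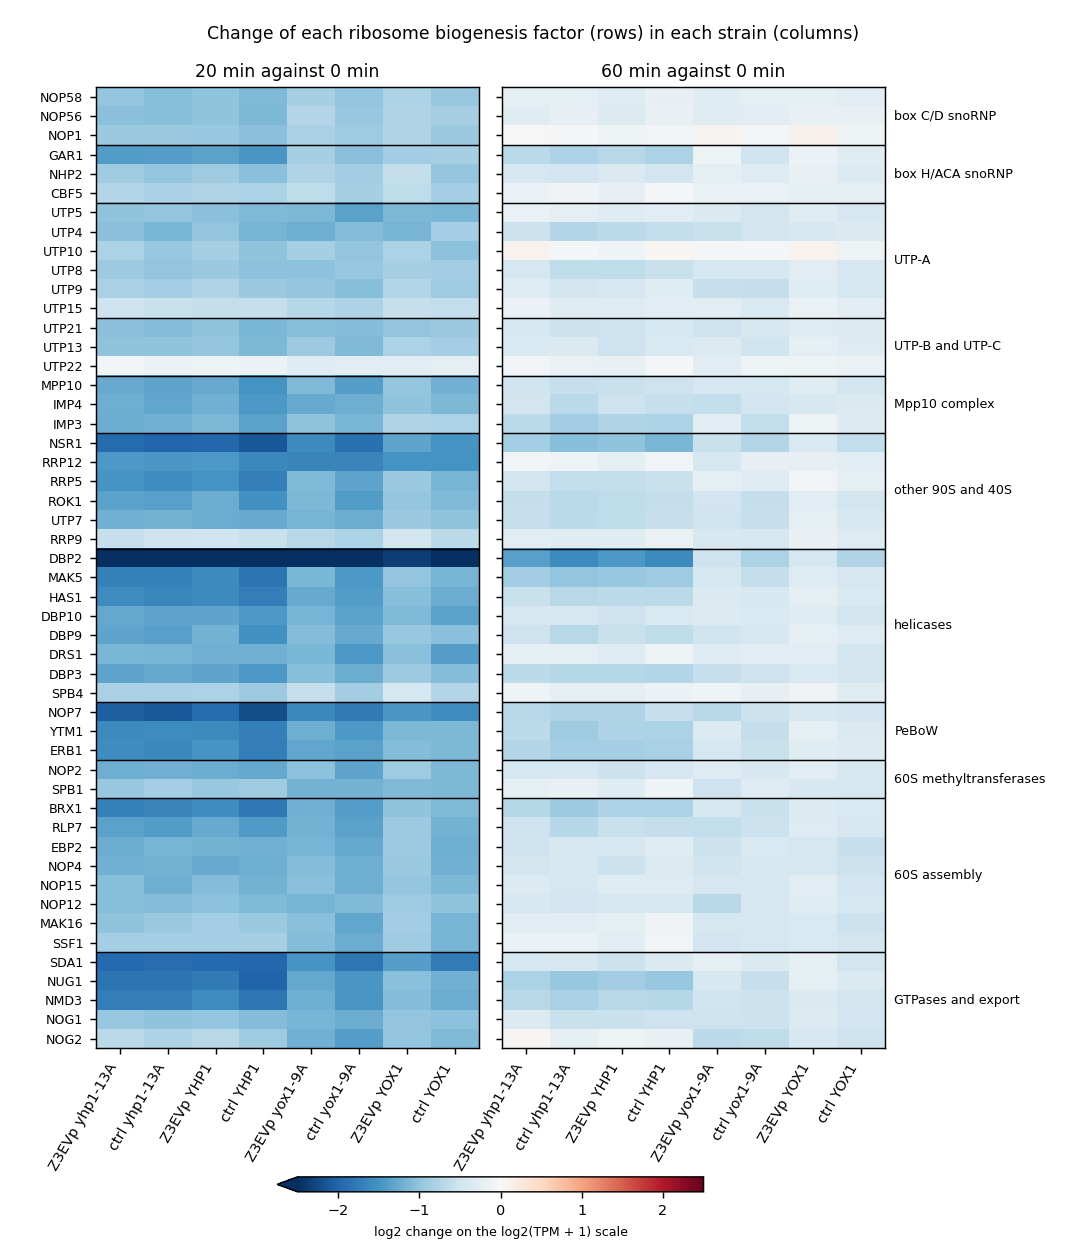
Log2 change (colour, log2(TPM + 1) scale) of each of the 50 factors (rows, by role) in each of 8 strains (columns, inducible strain left of its ctrl strain), at 20 (left) and 60 min (right) against 0 min. Colours end at -2.5, below which DBP2 lies at 20 min in all strains but Z3EVp YOX1, and UTP22 is the palest row at 20 min.

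At 60 min much of the fall had been regained, and the factors differed in how much. Against 20 min, 34, 40, 42 and 37 of the 50 factors rose in ctrl yhp1-13A, ctrl YHP1, ctrl yox1-9A and ctrl YOX1, where 5.63%, 7.17%, 5.42% and 4.52% of all genes rose. In 31 factors the rise was called in all 4 strains, which over all genes can hold for at most the 283 of 6255 called higher in ctrl YOX1. Over the 49 factors with a mean fall beyond 0.58, the share of the log2 fall regained had a median of 61.4%, with 93.2% in NOP1, 64.4% in DBP2 and 52.2% in NSR1. These shares, and those of single factors above, are from all 0 min libraries and depend on them. In ctrl yhp1-13A the medians at 20 and 60 min were -0.88 and -0.19 without the 0 min libraries numbered 1. Without those numbered 2 and 3 they were -1.84 and -1.19. Against 0 min, 20 factors were still called lower in ctrl yhp1-13A (background 4.09%), 17 in ctrl YHP1 (3.47%), 8 in ctrl yox1-9A (1.2%) and 2 in ctrl YOX1 (0.735%), with medians of -0.48, -0.43, -0.43 and -0.40. Of the 50, 28 were called lower at 60 min in no ctrl strain.

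The counts at 60 against 0 min rested on single libraries. The share of all genes called in the fits that follow is not given, so the backgrounds above do not apply to them. Leaving out the 0 min libraries numbered 1 gave 7, 7, 2 and 1 in ctrl yhp1-13A, ctrl YHP1, ctrl yox1-9A and ctrl YOX1, with medians of -0.19, -0.19, -0.42 and -0.36. Leaving out those numbered 2 and 3 of the YHP1 alleles gave 48 in ctrl yhp1-13A and 41 in ctrl YHP1 (medians -1.19 and -0.90). In ctrl YHP1 the count was 11 without replicate 2 at 60 min. In ctrl yox1-9A it was 5 without replicate 3 at 0 min and 4, 3 and 20 without replicate 1, 2 or 3 at 60 min. In ctrl YOX1 it was 7 and 4 without replicate 2 or 3 at 0 min and 6 and 4 without replicate 1 or 3 at 60 min. The rise at 60 against 20 min in ctrl yhp1-13A was called for 21 factors without replicate 1 at 20 min.

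Assembly factors outside the 50 moved in the same direction in the ctrl strains. Of 58 other 90S and 40S factors, 54, 56, 57 and 55 fell at 20 min in ctrl yhp1-13A, ctrl YHP1, ctrl yox1-9A and ctrl YOX1, and of 49 other 60S factors 45, 47, 49 and 48. Their medians were -1.03 to -1.15 and -1.06 to -1.29. The mean change over the ctrl strains ran from -2.04 in DHR2, a helicase of 18S RNA processing, to -0.58 in RRP7, and from -1.60 in RRS1 to -0.55 in SDO1. Of 15 genes of RNA polymerase I, which transcribes ribosomal RNA, 8 to 11 fell, with means between -1.28 in RPA43 and 0.06 in RRN10. Of 12 genes of RNA polymerase III, which transcribes 5S and transfer RNAs, 10 to 12 fell, with means from -1.20 in RPC34 to -0.52 in RPO31. Of 137 ribosomal protein genes 6, 6, 0 and 0 were called lower and none higher by limma, with medians of -0.23 to -0.35 and means from -0.59 in RPL11B to 0.24 in RPS9A. Of 13 regulators of the regulon 2 or 3 fell, with means from -1.96 in TOD6 to 0.24 in MAF1, the repressor of RNA polymerase III. Of 18 stress-induced genes, 9, 10, 18 and 18 rose at 20 min, with mean changes from 0.68 in TPS2 to 3.16 in DDR2. Their sum over the 12 ctrl libraries at each time was 399 to 1379 TPM at 0 min, 1701 to 2992 TPM at 20 min and 778 to 1033 TPM at 60 min. Their part in the fall of the factors was not tested.

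**Figure D4:**
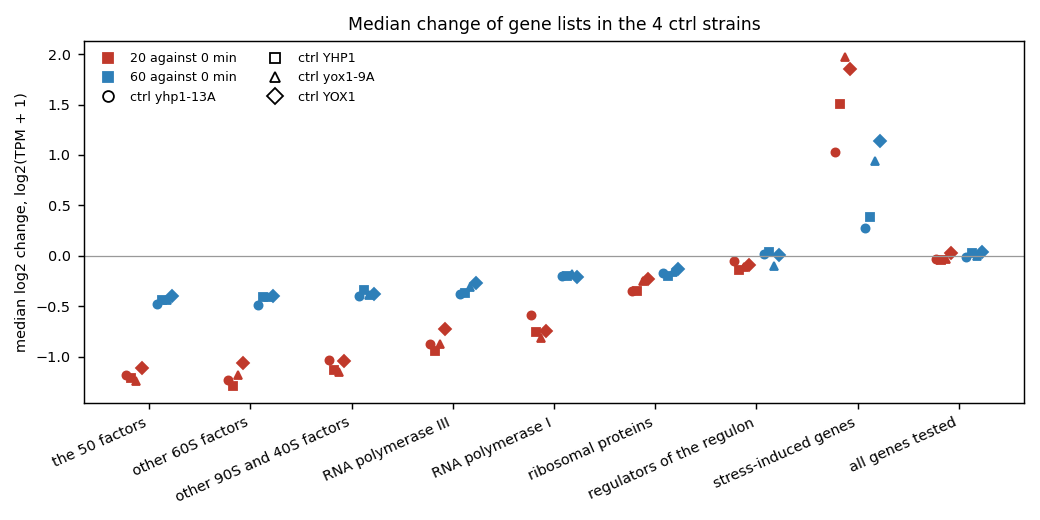
Median log2 change (vertical axis, log2(TPM + 1) scale) of gene lists (horizontal axis) at 20 and 60 against 0 min, with 1 marker per ctrl strain. At 20 min the 50 factors and the other assembly factors lie between -1.03 and -1.29, ribosomal protein genes between -0.23 and -0.35, and stress-induced genes above 1.

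In the inducible strains, where estradiol raised the repressor genes, the factors also fell. At 20 against 0 min 46 factors fell in Z3EVp yhp1-13A (background 10.5%), 47 in Z3EVp YHP1 (10.5%), 48 in Z3EVp yox1-9A (9.77%) and 46 in Z3EVp YOX1 (8.89%), with medians of -1.20, -1.19, -1.11 and -0.94. In 45 factors the fall was called in all 8 strains, which over all genes can hold for at most the 478 of 6255 called lower in ctrl YOX1. The 50 genes together made up 6475 to 9364 TPM over the 12 Z3EVp libraries at 0 min, 2736 to 3913 TPM at 20 min and 4916 to 6593 TPM at 60 min. At 20 min DBP2 was at 28.4, 28.4 and 40.4 TPM in Z3EVp yhp1-13A and at 28.2, 37.1 and 43.9 TPM in Z3EVp YHP1. It was at 51.3, 52.1 and 51.6 TPM in Z3EVp yox1-9A and at 77.4, 60.9 and 61.7 TPM in Z3EVp YOX1. At 60 against 0 min 12, 17, 5 and 0 factors fell in Z3EVp yhp1-13A, Z3EVp YHP1, Z3EVp yox1-9A and Z3EVp YOX1 (backgrounds 3.63%, 4.03%, 4.51% and 3.65%), by limma with 28, 35, 39 and 28 at an unadjusted p under 0.05. The share of all genes under the unadjusted limit is not given, so the counts by it cannot be compared with these backgrounds. At 60 against 20 min 38, 28, 34 and 32 rose (backgrounds 6.98%, 5.54%, 6.28% and 5.23%).

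Single libraries also moved these counts, again without a share of all genes beside them. At 60 against 0 min the count was 5 without replicate 1 at 0 min in Z3EVp yhp1-13A, and 7 and 26 without replicate 1 or 3 at 0 min in Z3EVp YHP1. In Z3EVp yox1-9A it was 2, 9 and 14 without replicate 1, 2 or 3 at 0 min and 10, 3 and 8 without replicate 1, 2 or 3 at 60 min. The rise at 60 against 20 min in Z3EVp YHP1 was called for 15 factors without replicate 1 at 20 min.

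The change of each ctrl strain was subtracted from that of its inducible strain, and the difference called no factor for any of the 4 alleles at 20 or 60 min. It does not hold the induced repressor alone. The ctrl strains raised HO instead, and before estradiol the repressor gene stood lower in the inducible strains (19.2 to 31.4 against 37.4 to 126 TPM). At 20 min this subtracted change had a median of 0.02 for yhp1-13A, 0.12 for YHP1, 0.17 for yox1-9A and 0.15 for YOX1, and at 60 min 0.09, -0.06, 0.02 and 0.13, beside medians over all genes of -0.01 to 0.07 and -0.05 to 0.13. With 1 library left out the medians at 20 min ran from -0.30 to 0.22 for yhp1-13A, -0.076 to 0.29 for YHP1, 0.11 to 0.28 for yox1-9A and 0.059 to 0.25 for YOX1. At 60 min they ran from -0.23 to 0.30, -0.28 to 0.11, -0.018 to 0.091 and 0.046 to 0.20. For both YHP1 alleles and both times, the lowest value came without replicate 1 of the ctrl strain at 0 min and the highest without replicate 1 of the inducible strain at 0 min, so that the sign of these medians rested on single libraries. The 2 times share their 0 min libraries. By limma 0, 0, 1 and 2 factors had an unadjusted p under 0.05 at 20 min, and 0 at 60 min. For that limit the share of all genes is not given. The share of all genes called was 0.353%, 0.0963%, 2.35% and 2.56% at 20 min and 0.498%, 0.0803%, 4.33% and 2.75% at 60 min. Single factors at 20 min ran from -0.30 in UTP4 under YOX1 to 0.47 in DBP2 under yox1-9A (95% interval 0.04 to 0.91, limma adjusted p = 0.53), and DBP2 was called there without replicate 3 of ctrl yox1-9A at 20 min. The 95% intervals of single factors reached a median of 0.62 to either side for the YHP1 alleles and 0.36 for the YOX1 alleles. They come from a fit without a term for replicate number, and differences of that size could not be detected by it. With replicate blocks 0 factors were called as well. Within library numbers 1, 2 and 3 the median at 20 min under YOX1 was 0.51, -0.01 and -0.05, a wider spread than the pooled median's distance from 0. It was 0.20, 0.22 and 0.04 under yox1-9A, 0.24, -0.13 and 0.30 under YHP1, and 0.19, -0.19 and 0.10 under yhp1-13A. At 60 min it was 0.17, 0.09 and 0.08 under YOX1 and differed in sign between numbers under each other allele.

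**Figure D5:**
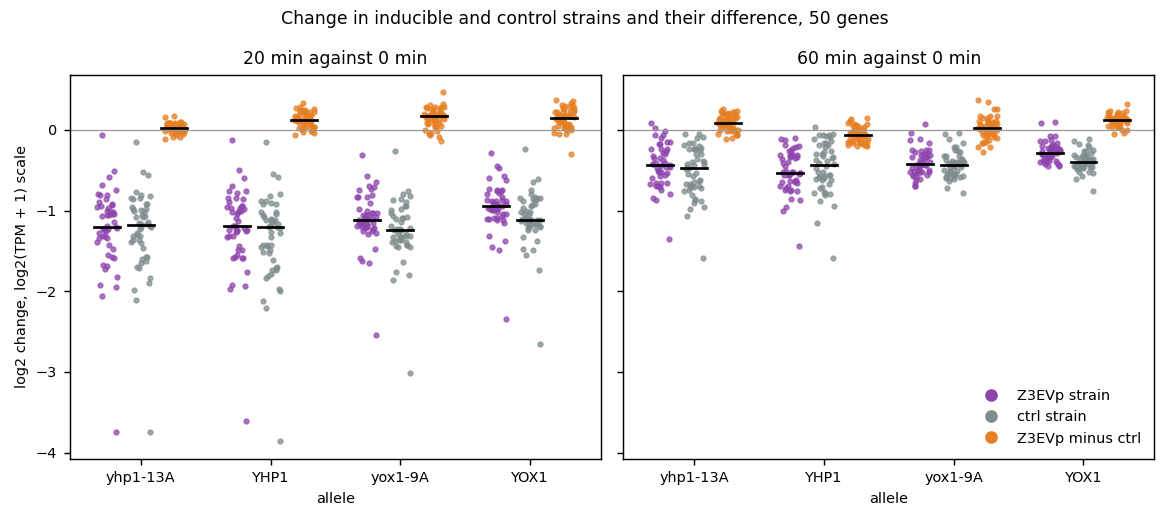
Log2 change (vertical axis, log2(TPM + 1) scale) of the 50 factors in each inducible strain, in its ctrl strain and as their difference, by allele (horizontal axis), at 20 (left) and 60 min (right), with a black bar at the median. At 20 min the medians of both strains of each pair lie between -0.94 and -1.24, and the subtracted medians at both times lie between -0.06 and 0.17.

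Before estradiol no factor was called between strains either. Counts by the unadjusted limit are again given without the share of all genes, and the backgrounds are for the adjusted rule. Inducible minus ctrl strain at 0 min called 0 of 50 factors for yhp1-13A, YHP1, yox1-9A and YOX1 (backgrounds 0.144%, 0.144%, 0.32% and 0.112%), with 0, 0, 1 and 1 at an unadjusted p under 0.05 by limma and single values between -0.33 (YTM1, yox1-9A) and 0.32 (ERB1, yhp1-13A). Mutant minus wild-type allele in the ctrl strains at 0 min called 0 in both pairs (background 0.0% in each), with 0 at an unadjusted p under 0.05 by limma and single values between -0.15 and 0.10. In the change over time, yhp1-13A minus YHP1 in the ctrl strains had medians of 0.08 at 20 min and -0.07 at 60 min, and yox1-9A minus YOX1 -0.15 and -0.05. No factor was called (0, 0, 1 and 0 at an unadjusted p under 0.05 by limma, background 0.0% in each). The subtracted change of the mutant minus that of the wild-type allele had medians of -0.11 and 0.14 for yhp1-13A and 0.00 and -0.11 for yox1-9A, with 0 called and 0 at an unadjusted p under 0.05 by limma (backgrounds 0.0%, 0.0161%, 0.0% and 0.224%). Its 95% intervals reached a median of 0.87 and 0.51 to either side.

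DBP2 was the 1 factor whose change was called different between the ctrl strains of the 2 tables. The mean change at 20 min with the YHP1 alleles minus that with the YOX1 alleles was -0.97 ± 0.21 (SE, 95% interval -1.39 to -0.55, limma adjusted p = 0.0012), and at 60 min -0.82 ± 0.21 (-1.24 to -0.40, limma adjusted p = 0.017), where 2.51% and 1.06% of 6247 genes were called lower in this way. Another 24 and 9 genes were called higher, so in this fit 1 factor of 50 was near the share of all genes. For the other fits below, that share is not given. Among the factors NUG1 followed with -0.59 at 20 min (limma adjusted p = 0.058). With the replicate number as a block 2 factors, DBP2 and NUG1, were called at 20 min. The count was also 2 without any 1 replicate of ctrl yhp1-13A at 0 min, replicate 3 of ctrl YHP1 at 0 or 20 min, replicate 2 of ctrl yox1-9A at 20 min, replicate 3 of ctrl YOX1 at 0 min or replicate 1 of ctrl YOX1 at 20 min. Without the 0 min libraries numbered 1, DBP2 gave -0.75 at 20 min and -0.60 at 60 min, and 5 and 4 factors were called. Without the 0 min libraries numbered 2 and 3 of the YHP1 alleles, DBP2 gave -1.49 and -1.33, and 30 and 29 factors were called. The allele and the table cannot be told apart here.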

How the data were processed

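RNA of yeast cultures was sequenced in 72 libraries, and per the labels and the study's methods the authors aligned reads with STAR 2.5.3a, counted exon fragments of high mapping quality with featureCounts 1.5.2 on the Ensembl R64-1-1 annotation, and deposited TPM values, which are length-corrected shares of each library and keep no depth. The labels speak of polyA depletion and the methods of poly-A purification, and no source used here gives the strandedness. Groups came from sample titles. In each table the levels were analysed as log2(TPM + 1), after a filter of a mean of at least 1 TPM, with limma 3.58.1 in R 4.3.3 (12 groups in 1 fit, trended variance, Benjamini-Hochberg adjustment per contrast, log2 limit 0.58), and the tables were compared in a joint fit. A fold change on this scale understates the change of low genes. The script was tested on simulated data. Nothing says that the 3 libraries of a group came from separate cultures, so p-values measure only the spread between these libraries.

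The 50 members, the other gene lists and the tests were chosen with earlier results of these data known. Values in every ctrl library are given for the 5 factors with the lowest and the 3 with the highest mean change at 20 min, for the most abundant factor of each of 11 role groups, and for factors called between strains. Of other lists, the genes with the lowest and highest mean change are named. Sequences came from RefSeq R64, the same assembly as R64-1-1.

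Replicate numbers pair libraries across strains at 1 time in the yhp1 table, where same-numbered libraries deviated together in 18 of 18 pairs of strains and numbers at each time (correlations of 0.34 to 0.82). For the YOX1 alleles 15, 10 and 15 of 18 were over 0.1 at 0, 20 and 60 min. Alternatives were another pseudocount (0.1), no filter, libraries shifted to a common median, replicate blocks, only the groups of a contrast, and leaving out libraries.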

Additional observations from a re-analysis of the deposited data

Results flagged for a closer look

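DBP2 was the factor whose response differed between the 2 sets of ctrl strains by a test of the difference itself (limma, both tables in 1 fit). With the YHP1 alleles minus the YOX1 alleles, the log2 change differed by -0.97 at 20 min and by -0.82 at 60 min. By this test 1 factor of 50 was called at each time, which is near the share of all genes called. At 20 min DBP2 stood at 25 to 40.3 TPM in the 6 libraries of ctrl yhp1-13A and ctrl YHP1, against 32.1 to 65.7 TPM in the 6 of ctrl yox1-9A and ctrl YOX1. At 0 min it stood at 338 to 717 TPM, against 325 to 409.6 TPM. The levels overlapped at 20 and at 0 min. At 60 min DBP2 stood at 143 to 166 TPM, against 192 to 238 TPM, without overlap. The 2 results share their 0 min libraries, and the part of the 0 min libraries numbered 1 was not tested beyond leaving them out.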

How the results depend on the processing

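Of the counts and medians, 548 values under other settings stayed within the limits set for them and 25 moved, and with 1 library left out 675 stayed and 33 moved. The share of all genes called under other settings is not given here. Leaving out the 0 min libraries numbered 1, or those numbered 2 and 3, and the block within time were chosen after seeing the data. With those numbered 1 left out, factors called lower at 60 against 0 min were 7, 7, 2 and 1 in ctrl yhp1-13A, ctrl YHP1, ctrl yox1-9A and ctrl YOX1, and 7, 9 and 2 in Z3EVp yhp1-13A, Z3EVp YHP1 and Z3EVp yox1-9A. The difference between the YHP1 and YOX1 alleles then called 5 at 20 min and 4 at 60 min. With those numbered 2 and 3 of the YHP1 alleles left out, which leaves 1 library a group, assumed to vary like the other groups, the counts at 60 min were 48, 41, 41 and 40 in ctrl yhp1-13A, ctrl YHP1, Z3EVp yhp1-13A and Z3EVp YHP1. The medians were then -1.84 at 20 min and -1.19 at 60 min in ctrl yhp1-13A and -0.90 at 60 min in ctrl YHP1, and the difference between the tables called 30 factors at 20 min and 29 at 60 min. With a replicate block, within strain or within time, or shared by a table, 2 factors were called between the tables at 20 min, and no other count moved. Shifting libraries to a common median gave 6 factors lower at 60 min in ctrl YOX1 and 18 in Z3EVp yox1-9A, where 22 rose against 20 min. Fitting only the groups of the contrast gave 7 lower at 60 min in ctrl yhp1-13A. The cause was not tested.

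With 1 library left out, counts at 60 against 0 min ran from 7 to 28 in ctrl yhp1-13A, 7 to 22 in ctrl YHP1, 2 to 20 in ctrl yox1-9A and 1 to 7 in ctrl YOX1, and from 5 to 15 in Z3EVp yhp1-13A, 7 to 26 in Z3EVp YHP1 and 2 to 14 in Z3EVp yox1-9A. Rises against 20 min ran from 21 to 29 in ctrl yhp1-13A and from 15 to 32 in Z3EVp YHP1, counts between the tables at 20 min from 1 to 2, and the subtracted change of yox1-9A at 20 min from 0 to 1. UTP22 in ctrl yhp1-13A at 20 min ran from -0.27 to 0.063, and was 0.063 without the 0 min libraries numbered 1. TPM keeps no depth, so counting error is unknown.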

Other observations

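TOD6 encodes a repressor that is known to bind the PAC element. Like most of the ribosome biogenesis factors, whose windows mostly held a PAC core, TOD6 fell at 20 min in the ctrl strains. Its log2 change at 20 min was -1.77, -1.99, -2.28 and -1.79 in ctrl yhp1-13A, ctrl YHP1, ctrl yox1-9A and ctrl YOX1, called by limma in all 4. Its paralog DOT6 had values between -0.14 and 0.22, and STB3, whose product binds RRPE, between -0.02 and 0.36, and neither was called.

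The 50 factors lay on 15 chromosomes, and 2 of them had an intron, DBP2 and NOG2. DBP2 had the largest mean fall of the 50, and NOG2, whose intron hosts a snoRNA gene, was called lower at 20 min in 5 of the 8 strains. In 6 places a factor was the direct neighbour of an assembly factor outside the 50, for example RRP3 and SSF1, which are transcribed away from each other from start codons 297 bases apart. How often this holds for other genes was not counted.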
